A study of Bos grunniens with 18 samples.

Results

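The 200 genes described here were the most abundant transcripts of the yak epididymis for which no N6-methyladenosine (m6A) peak was assigned. They were chosen from the 18467 genes of the authors' expression table, of which 17576 had a symbol. A gene qualified when its identifier was named by no site in any of the 3 tables in which the authors compared m6A peaks between regions. Symbols beginning with RPL, RPS, MRPL, MRPS or DEFB, read without regard to letter case, were left out. So were genes whose pathway entry named oxidative phosphorylation. Of the 7945 genes that met these terms, the 200 with the highest mean over the 9 input libraries were taken. Both abundance and the lack of a site were therefore used to choose the members, and neither is a finding about them.

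The study mapped m6A in the head (caput), body (corpus) and tail (cauda) of the epididymis of healthy 4-year-old male yaks (Bos grunniens), with no treatment and no genetic change. Poly(A) RNA was fragmented, enriched with an antibody against m6A and sequenced together with unenriched input RNA. There were 18 libraries, with 3 enriched and 3 input ones per region. The labels name 6 animals without tying libraries to animals, and the spread between libraries may therefore be technical. The expression values are FPKM (fragments mapped to a gene, scaled by its length and by the total of mapped fragments), in 9 columns of input libraries. The column names hold the codes EA, EB and EC, with 3 columns each. These codes match no label, so no column is given to a region here, and the columns are described by their codes without any test. In whole tissue, fewer cells of a type and less RNA per cell cannot be told apart.

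m6A is laid down on nascent messenger RNA by a complex built around METTL3 and METTL14, most often near stop codons and in long internal exons. Reader proteins of the YTH family bind the mark, and marked transcripts are often less stable. The epididymal duct is lined mainly by principal cells, which secrete proteins that bind maturing sperm or shape the fluid around them, among them lipocalins, protease inhibitors and peroxidases.

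Transcripts without a site were common at both ends of the range of abundance. Among all genes with a symbol, ranked by mean FPKM, 71 of the 100 most abundant had no site in any comparison table (71.0%, 95% Wilson interval 61.5 to 79.0). The share was 59.0% at ranks 101 to 200 (49.2 to 68.1), 53.3% at ranks 201 to 500 (47.7 to 58.9) and 43.4% at ranks 501 to 1000 (39.1 to 47.8). It was lowest, 21.6%, at ranks 4001 to 8000 (20.3 to 22.9), where mean levels lay between 6.66 and 21.8 FPKM. Below rank 12000, at mean levels of at most 1.47 FPKM, 86.0% of genes had no site (85.1 to 86.9). The intervals cover counting error only, and genes are not independent replicates. Over the 1000 most abundant genes, 507 had no site (50.7%, 47.6 to 53.8). Ribosomal protein, beta-defensin and oxidative phosphorylation genes contributed to this share: without them it was 45.4% (42.3 to 48.5), and 58.0% of the first 100 genes (48.2 to 67.2).

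**Figure D1:**
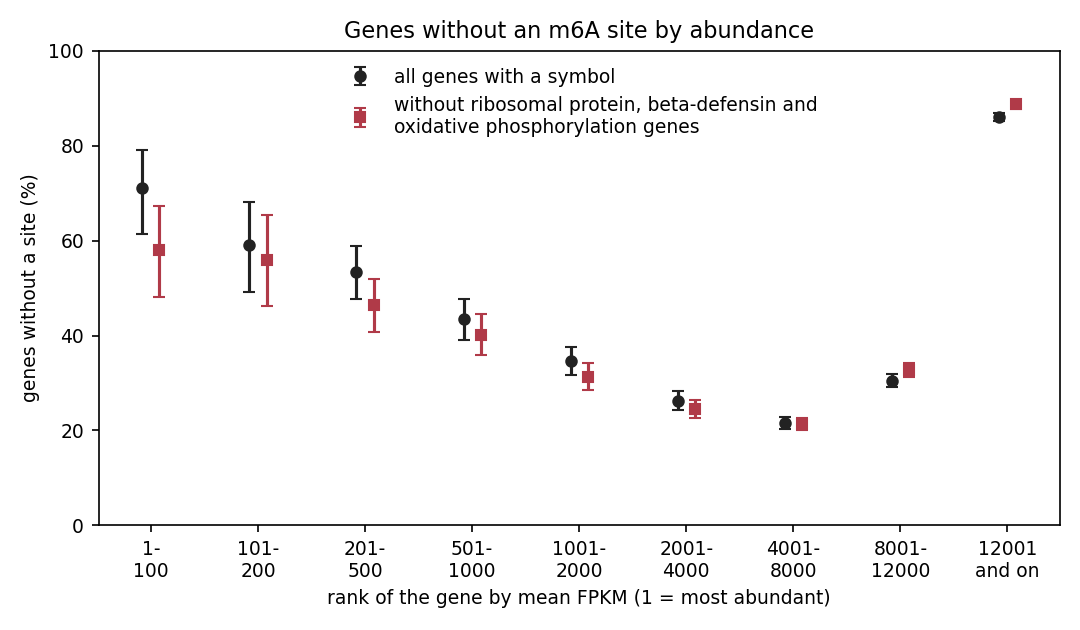
Share of genes without an m6A site in any comparison table (vertical axis, percent) against rank by mean FPKM (horizontal axis, most abundant on the left), with 95% Wilson intervals. The share is 71.0% in the 100 most abundant genes, 21.6% at ranks 4001 to 8000 and 86.0% below rank 12000; squares leave out ribosomal protein, beta-defensin and oxidative phosphorylation genes.

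The lack of a site means that no site of the comparison tables was assigned to the gene. The candidate lists of the regions held further peaks, 1260 of 14542 in the caput (8.66%), 995 of 13798 in the corpus (7.21%) and 1134 of 14182 in the cauda (8.0%), that overlapped no site assigned to a gene. The authors' class of m6A was given to 1010, 807 and 920 adenosine positions in these peaks. Since the expression table carries no coordinates, it was not determined whether any of these peaks lay in a member. The last gene taken was ROMO1, with a mean of 206 FPKM, after TOMM5 (207), TIMM8B (208), SNRPB (209) and SLC25A5 (210). The first genes beyond it were PREY (204 FPKM), CTSA (204), SERPINF2 (203), GSTP1 (202) and TAF10 (202). The limit of 200 thus falls within a run of genes with nearly equal means.

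The members made up between 23.6% (EC2_2) and 35.7% (EC3_2) of the summed FPKM of a column. For comparison, genes with a symbol that carried a site and reached at least the level of the last member were taken. Ribosomal protein, beta-defensin and oxidative phosphorylation genes were left out of them as well. These 177 genes made up between 10.4% (EC3_2) and 13.4% (EB1_3). Much of the variation of this share lay in 2 members, Lcn5 and CD52, which together took 15.8% of the sum in EC3_2 and 13.3% in EA3_1, but 4.19% in EA2_1 and 4.24% in EC2_2. All 200 members had a value above 0 in every column. The column sums ran from 774029 (EB1_3) to 969271 (EC3_2) FPKM. Low values of the table followed steps of single reads, and from these steps the relative depth of the columns was 0.962 to 1.21 (EA2_1 set to 1).

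**Figure D2:**
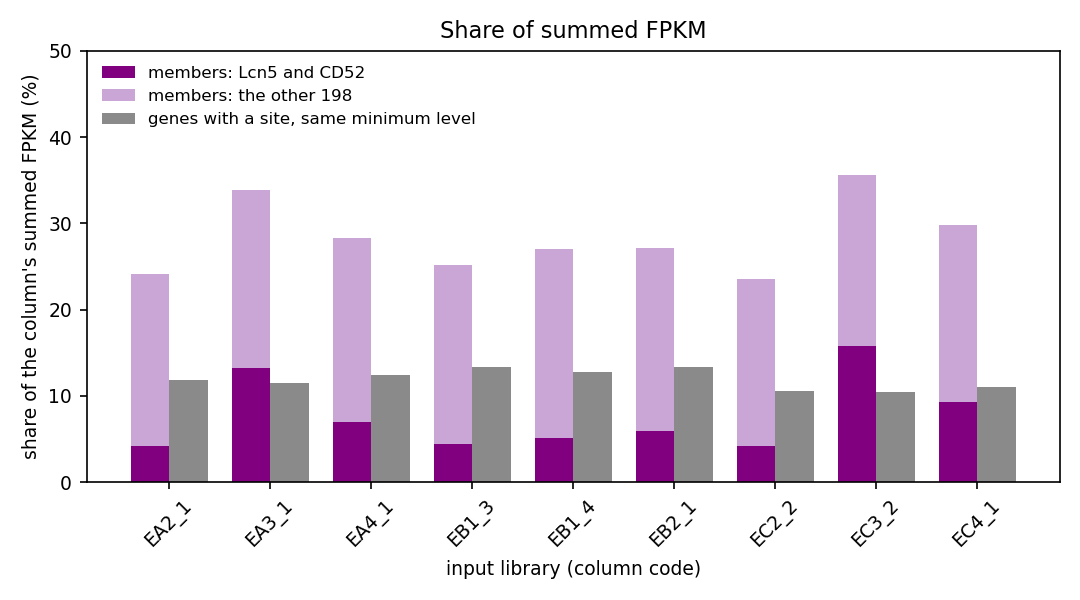
Share of each column's summed FPKM (vertical axis, percent) taken by the 200 members, with Lcn5 and CD52 in the dark part, and by the 177 genes with a site at or above the same level. Ribosomal protein, beta-defensin and oxidative phosphorylation genes were left out of both groups. In every column the members' bar is the taller one, and Lcn5 and CD52 range from 4.19% to 15.8%.

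Markers of the main cell types of the epididymis were present in every column. The 10 principal cell markers, 3 of them members (CD52 included), summed to between 24645 (EA2_1) and 152207 FPKM (EC3_2). This range mostly followed CD52, with 126 FPKM in EA2_1 and 138549 FPKM in EC3_2, and is no measure of principal cells. The abundant CLU identifier went the other way, with 11177 FPKM in EA2_1 and 137 FPKM in EC3_2. The 4 basal cell markers summed to between 64.7 and 115 FPKM. The smooth muscle markers measured summed to between 3869 and 7880 FPKM, fibroblast markers to between 380 and 1482 FPKM and endothelial markers to between 24.4 and 58.7 FPKM. Markers of clear and narrow cells, the proton-secreting cells of the duct, were low, at 3.49 to 28.5 FPKM. So were those of multiciliated cells, at 0.497 to 34.0 FPKM, and of erythrocytes, at 0.729 to 3.73 FPKM.

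Secreted proteins of the epididymis held the largest summed level among the lists. Of the 43 genes matched by a list of 48 such symbols, 13 were members, 10 carried a site and 20 others were neither. As a base for this and the other lists, 8257 of all 17576 genes with a symbol had no site. The median of the highest over the lowest column, as a log2 ratio with 1 FPKM added, was 5.87 over these 13 members and 1.09 over all 200. Clusterin (CLU), with a mean of 5373 FPKM, and CRISP1, with 528 FPKM, are secreted genes that carried a site.

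Lcn5, an epididymal lipocalin that binds retinoic acid in the mouse, led the set with a mean of 37600 FPKM. It had 34867, 113865 and 56516 FPKM in the EA columns and 28022, 30961 and 42341 FPKM in the EB columns. In the EC columns it had 1951, 14651 and 15230 FPKM. All EC columns lay below all others, and the EA and EB columns overlapped. CD52, a small lipid-anchored glycopeptide known from lymphocytes and from the epididymal epithelium, which passes it to sperm, showed the opposite order of the codes. It had 126, 413 and 1014 FPKM in the EA columns, 6597, 11674 and 7954 FPKM in the EB columns and 32153, 138549 and 65850 FPKM in the EC columns. The codes did not overlap for CD52. The summed level of 5 leukocyte markers, CD52 not among them, was 2278 FPKM in EC2_2 and 965 FPKM in EC3_2, where CD52 was highest. The range of this sum elsewhere was 783 to 1398 FPKM, and most of it was Cd74 in every column. The part of leukocytes in the level of CD52 was not tested.

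SPINT4, of the Kunitz family of serine protease inhibitors, had 11.9, 552 and 4075 FPKM in the EA columns, 10765, 23297 and 16654 FPKM in the EB columns and 38.2, 1427 and 3253 FPKM in the EC columns. Its EB columns lay above all others, while its EA and EC columns covered a similar wide range. Spag11, a sperm-binding relative of the beta-defensins, had 6451, 12104 and 13231 FPKM in the EA columns, 2042, 113 and 651 FPKM in the EB columns and 77.2, 11.7 and 29.4 FPKM in the EC columns. The codes of Spag11 did not overlap.

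Further secreted members shared the high EA columns. GPX5, a secreted glutathione peroxidase of the epididymis, had 1002, 2639 and 2573 FPKM in the EA columns, against at most 60.2 FPKM in any other column. Lcn12, another lipocalin, had 189, 3360 and 1766 FPKM in the EA columns and at most 3.06 FPKM elsewhere, a log2 ratio of highest to lowest column of 11.62, the largest in the set. EDDM13 (epididymal protein 13) had 2046, 5464 and 2986 FPKM in the EA columns, and its highest value elsewhere was 1342 FPKM in EC3_2. BSPH1, of the binder of sperm family, had 586, 787 and 579 FPKM in the EA columns and between 83.5 and 231 FPKM elsewhere.

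The secreted members NPC2, WFDC2 and CST3 were more even along the columns. NPC2, a cholesterol-binding protein of epididymal fluid, ran from 5242 through a median of 12440 to 22288 FPKM. WFDC2, a protein with whey acidic protein domains, ran from 5541 through 6721 to 11307 FPKM. CST3 (cystatin C, an inhibitor of cysteine proteases) ran from 185 through 281 to 380 FPKM. In NPC2 and WFDC2 the codes overlapped, and in CST3 the EC columns lay above the others by less than 2-fold. Wider ranges were found for PEBP4, between 81.5 and 765 FPKM, and PATE3, of a family expressed in prostate and testis, between 20.1 and 590 FPKM. All 3 EA columns of PATE3 lay below the others.

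Families that recur in the set were counted after its values were seen. Of 23 genes of the WFDC, SPINT and SPINK protease inhibitor families, 17 reached a mean of 1 FPKM, 8 were members and 2 carried a site. The members were WFDC2, SPINT4, SPINT2, WFDC10A, SPINK8, WFDC13, WFDC10B and WFDC8. SPINT2, the Kunitz inhibitor of epithelial surface proteases, lay between 965 and 2194 FPKM, whereas WFDC8 had 861, 879 and 910 FPKM in the EA columns and 2.52, 4.83 and 23.1 FPKM in the EC columns. None of the 11 lipocalin genes of the LCN series carried a site, but only 8 of them reached a mean of 1 FPKM. Lcn5 and Lcn12 were the members. Of 15 GPX and PRDX peroxidase genes, 5 were members and 5 carried a site.

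**Figure D3:**
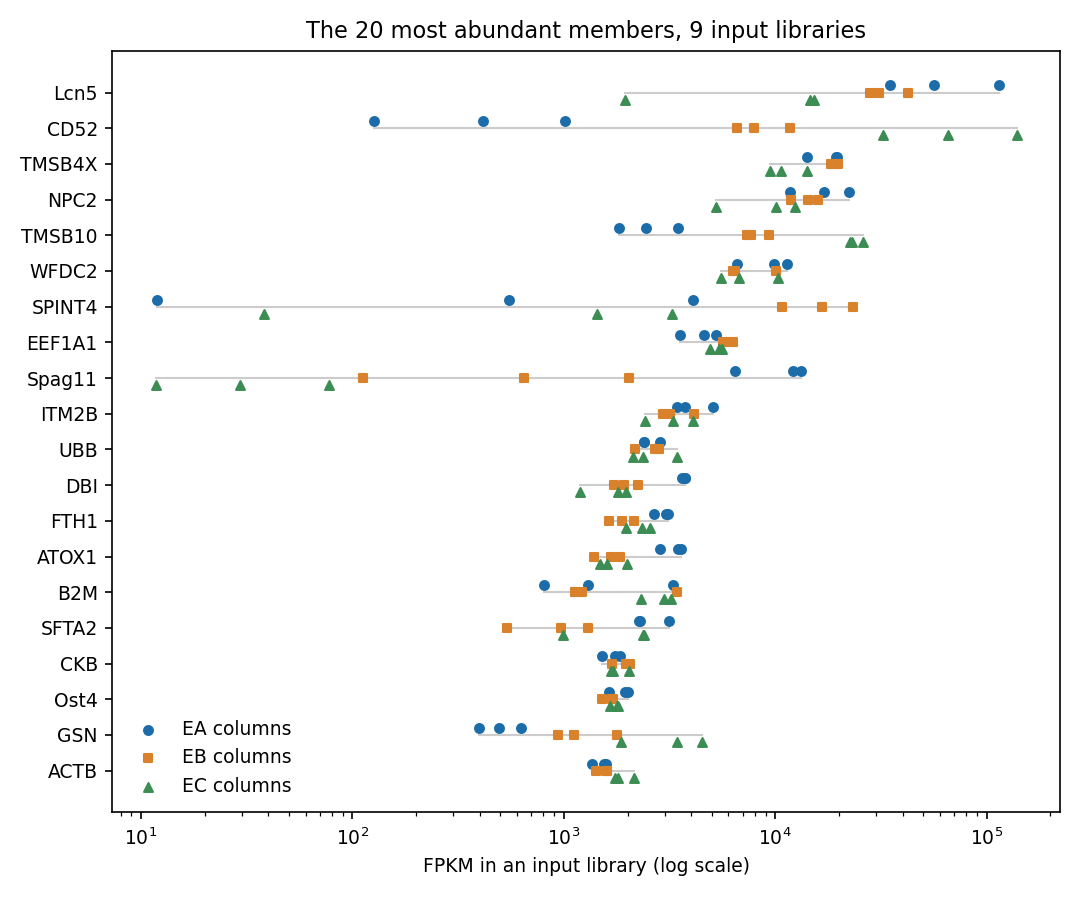
FPKM (horizontal axis, log scale) of the 20 members with the highest mean in each of the 9 input libraries, marked by column code. CD52, TMSB10, Spag11 and GSN span a wide range with 3 separated codes, Lcn5 and SPINT4 have 1 code apart (EC below and EB above), while EEF1A1, UBB, CKB, Ost4 and ACTB stay within a narrow one.

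Genes of the actin cytoskeleton formed another abundant group. Of 23 genes matched, 6 were members and 10 carried a site. TMSB4X, which holds actin monomers, ran from 9420 through a median of 18336 to 19699 FPKM, with overlapping codes. TMSB10, a thymosin with the same role, had 3470, 1830 and 2449 FPKM in the EA columns, 9285, 7693 and 7381 FPKM in the EB columns and 23048, 25974 and 22495 FPKM in the EC columns. These codes did not overlap. Gelsolin (GSN), which severs actin filaments, followed the same order of codes, with 629, 398 and 491 FPKM, then 933, 1122 and 1789 FPKM, then 1861, 4509 and 3422 FPKM. ACTB and ACTG1, the cytoplasmic actins, were more even, with 1352 to 2140 FPKM and 1134 to 1912 FPKM. Actin genes are closely alike in sequence, so reads may be shared between them.

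Of 16 genes of smooth muscle contraction, 14 carried a site and the other 2, MYL6 (1190 to 1684 FPKM) and CSRP1 (340 to 531 FPKM), were members. MYL6 encodes a myosin light chain found in muscle and other cells. The smooth muscle actin Acta2 (mean 2250 FPKM) and the heavy chain MYH11 (330 FPKM) carried a site. Neither member had columns of a code apart by 2-fold or more.

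The members among translation factors were more even across the columns than the secreted members. Of 37 genes matched, 9 were members and 12 carried a site, with a median log2 ratio of highest to lowest column of 0.79 over the members. EEF1A1, the elongation factor that brings transfer RNA to the ribosome, was listed under several identifiers. The member ENSBGRG00000009070 ran from 3525 through a median of 5420 to 6303 FPKM, and the member ENSBGRG00000019379 from 670 through 971 to 1160 FPKM. Other identifiers with that symbol, at means of up to 24.8 FPKM, included 3 with a site, so the reads and sites of EEF1A1 copies may be divided between them. FAU, a fusion of a ubiquitin-like protein with a ribosomal protein, ran from 1005 to 1992 FPKM in its more abundant copy, and EEF1G, a subunit of the elongation factor complex, from 912 to 1301 FPKM.

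Of 32 ubiquitin and proteasome genes, 6 were members and 10 carried a site. UBB, a polyubiquitin gene, ran from 2131 through 2397 to 3433 FPKM, SUMO2 from 520 to 768 FPKM and NEDD8 from 315 to 559 FPKM. None of UBB, SUMO2 and NEDD8 had a code whose columns lay apart by 2-fold or more.

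Of 23 genes matched by a list for entry into the endoplasmic reticulum, 7 were members and 8 carried a site. ITM2B, an integral membrane protein that stands on this list but is not part of the entry machinery, ran from 2421 through 3436 to 5058 FPKM. Ost4, a small subunit of the enzyme that attaches N-linked sugars, was among the most even, at 1520 to 2015 FPKM. SSR2, of the translocon-associated complex, ran from 825 to 1544 FPKM and DAD1, another subunit of the sugar-transferring enzyme, from 391 to 711 FPKM.

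Of 34 genes of iron storage and oxidant defence, 7 were members and 12 carried a site. FTH1, the ferritin heavy chain, again had several identifiers. The member ran from 1642 through 2343 to 3103 FPKM, while another FTH1 identifier with a mean of 4246 FPKM carried a site. GPX4, which reduces lipid peroxides and is needed in sperm, had 275, 400 and 437 FPKM in the EB columns, below 561 to 1014 FPKM elsewhere. PRDX2 was even, at 441 to 561 FPKM, and PRDX1 ran from 411 to 701 FPKM.

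Of 18 genes of S100 proteins and annexins on the fixed list, 5 were members and 10 carried a site. S100a10 had 133, 177 and 137 FPKM in the EB columns, 492, 331 and 284 FPKM in the EA columns and 645, 1035 and 764 FPKM in the EC columns, without overlap. S100G, a calcium-binding protein outside that list, showed the same order and a much wider range. It had 2.51, 3.43 and 1.34 FPKM in the EB columns, 1310, 909 and 286 FPKM in the EA columns and 2834, 4475 and 2784 FPKM in the EC columns. ANXA2 lay between 171 and 512 FPKM, S100A14 between 113 and 594 FPKM and S100A13 between 143 and 374 FPKM.

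In no list were SFTA2, a small secreted protein known from lung, and CKB, the creatine kinase of brain and epithelia, which were also among the 20 most abundant members. SFTA2 ran from 539 (EB1_4) through a median of 2277 to 3157 FPKM (EA4_1), and CKB from 1522 through 1738 to 2046 FPKM.

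The remaining lists held fewer members. Of 27 lysosome and proton pump genes, 4 were members and 10 carried a site. Besides NPC2 these members were CD63, a tetraspanin of vesicles (418 to 748 FPKM), GLB1, the lysosomal beta-galactosidase (268 to 874 FPKM), and CD81, another tetraspanin (231 to 310 FPKM). Of 17 glycolysis genes, 3 were members and 6 carried a site: GAPDH ran from 675 to 1035 FPKM, and ALDOA had 262 to 350 FPKM in the EA columns, 431 to 456 FPKM in the EB columns and 712 to 776 FPKM in the EC columns. Of 18 keratin and epithelial genes, 3 were members and 12 carried a site; EPCAM, an epithelial adhesion molecule, ran from 228 to 496 FPKM, and CLDN7, of tight junctions, from 218 to 347 FPKM. Of 26 extracellular matrix and fibroblast genes, 3 were members and 18 carried a site. These members were IGFBP6 and Igfbp7, which bind insulin-like growth factors (261 to 543 and 254 to 344 FPKM), and decorin, DCN, of collagen fibres (216 to 436 FPKM). Of 32 chaperone genes, 2 were members, the prolyl isomerase PPIA (522 to 948 FPKM) and the mitochondrial co-chaperonin HSPE1 (172 to 253 FPKM), and 20 carried a site. Of 37 histone and nuclear genes, 2 were members, prothymosin alpha, Ptma (486 to 736 FPKM), and the histone gene H3-3A (210 to 425 FPKM), and 16 carried a site. Of 20 immediate early and stress genes, which respond within minutes to stimuli, none was a member and 18 carried a site. None of 5 erythrocyte genes was a member, and 1 carried a site.

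Ontology terms gave a further description of the members. They were looked up after the values were seen and were not tested. Extracellular region was given for 26 of 189 annotated members (13.8%), for 7 of 165 annotated genes with a site at or above the same level (4.24%) and for 4.61% of all annotated genes with a mean of at least 1 FPKM. The term extracellular space was less frequent among the members than among the genes with a site, with 16 members (8.47%), 19 of the genes with a site (11.5%) and 4.38% of all. Mitochondrial inner membrane was given for 8 members (4.23%), for 0 of those 165 genes and for 2.31% of all. Only genes whose pathway entry named oxidative phosphorylation had been left out. The ATP synthase gene ATP5MPL (mean 1151 FPKM), named here after its values were seen, stayed among the members. Endoplasmic reticulum was likewise less frequent among the members than among the genes with a site, with 12 members (6.35%), 28 of the genes with a site (17.0%) and 4.87% of all. The pathway of protein processing in that compartment held 6 of 103 members with a pathway (5.83%), 21 of 103 genes with a site (20.4%) and 3.12% of all.

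The members ranged from nearly even to widely spread levels. The highest column was less than 2-fold above the lowest, with 1 FPKM added, in 87 members (43.5%), in 43.5% of the 177 abundant genes with a site and in 40.8% of the 12947 genes with a mean of at least 1 FPKM. The narrowest were UBL5, a ubiquitin-like protein (582 to 730 FPKM), CHCHD2 of mitochondria (223 to 283 FPKM), PRDX2, SDCBP (syntenin, 217 to 280 FPKM) and VAMP8, of vesicle fusion (336 to 436 FPKM). At the other end, 29 members (14.5%) differed at least 10-fold between columns, against 7.34% of the abundant genes with a site and 6.60% of all. The widest were Lcn12, S100G, SPINT4, GLB1L2 and GPX5. GLB1L2, a relative of beta-galactosidase, had 824, 1813 and 1165 FPKM in the EA columns, 449, 303 and 381 FPKM in the EB columns and 0.117, 0.381 and 4.23 FPKM in the EC columns. The median log2 ratio was 1.09 over the members, 1.12 over the abundant genes with a site and 1.13 over all.

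In 49 members (24.5%) all columns of a code lay above or below every other column, with medians at least 2-fold apart. This held for 33 of the 177 abundant genes with a site (18.6%) and for 15.3% of the 12947 genes. By code and direction, EA columns lay above in 11 members (background 3.36%) and below in 15 (2.69%). EB columns lay above in 9 members (1.79%) and below in 9 (5.03%), of which 6 remained after the columns were rescaled to equal sums. EC columns lay above in 15 members (2.91%) and below in 7 (1.86%). For EB columns below, the members' share of 4.50% was near the background, and for the other directions it was above it. Among the 177 abundant genes with a site, the shares were 4.52% for EA above, 6.78% for EA below, 4.52% for EB above, 4.52% for EC above and 4.52% for EC below, and no gene had EB columns below. The members' shares were thus close to those of equally abundant genes for EB above (4.50%) and below them for EC below (3.50%). Since a mean over all columns chose the members, these counts are a description. Without a minimum difference, columns of a code lay apart in 106 members (53%), in 86 of the abundant genes with a site (48.6%) and in 33.0% of all genes.

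Besides the genes named above, members with high EA columns included the DBI copy ENSBGRG00000002927, an acyl-CoA binding protein (3745, 3734 and 3635 FPKM against 1192 to 2250 FPKM elsewhere), and ATOX1, a copper chaperone (2860, 3593 and 3460 FPKM against 1395 to 1994 FPKM). Members with high EB columns included both abundant copies of MAN2B2, an alpha-mannosidase, and QDPR, which regenerates tetrahydrobiopterin (617, 723 and 667 FPKM against 160 to 364 FPKM). The MAN2B2 copy ENSBGRG00000013414 had 1592, 2582 and 1769 FPKM in the EB columns, 598, 1522 and 1218 FPKM in the EC columns and 24.7, 67.5 and 292 FPKM in the EA columns. The copy ENSBGRG00000006130 had 935, 698 and 1276 FPKM in the EB columns, 3.08, 2.60 and 182 FPKM in the EC columns and 5.04, 21.2 and 245 FPKM in the EA columns. The copies thus differed in the EC columns. Members with high EC columns included BCAM, a laminin receptor (999, 1853 and 1505 FPKM against 443 to 671 FPKM), and the galectin LGALS3 (607, 666 and 507 FPKM against 122 to 302 FPKM). These genes were chosen after their values were seen.

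**Figure D4:**
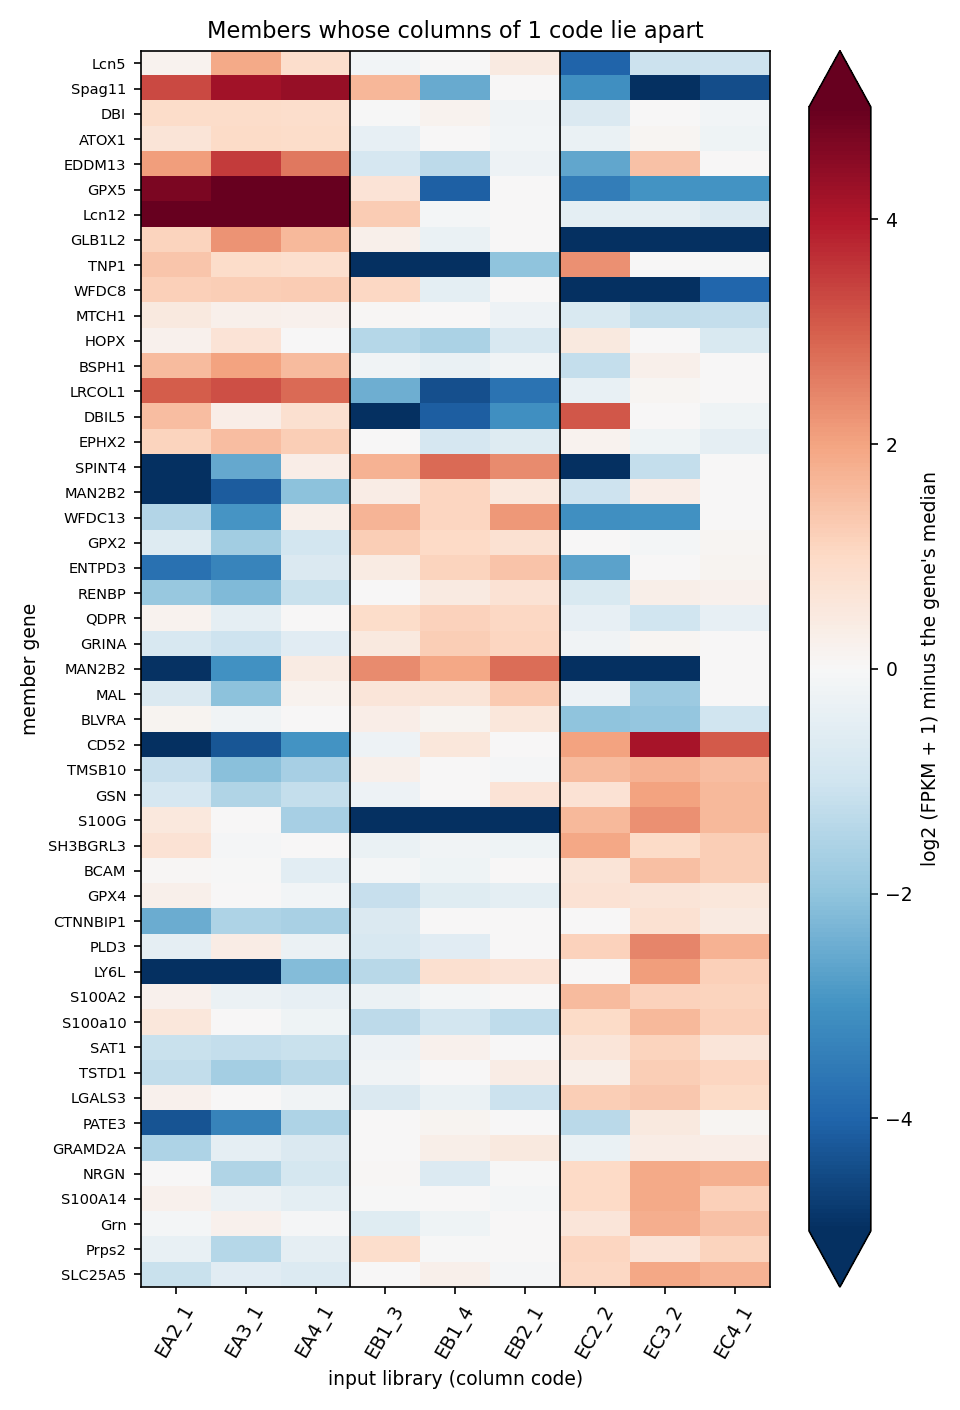
The 49 members in which all columns of a code lay apart from the others (rows), as log2 of FPKM plus 1 minus the gene's own median over the 9 input libraries (columns). Rows are grouped by the code with the highest median. The colour scale ends at 5 in either direction, and larger differences, such as the EA columns of Lcn12 or the EB columns of S100G, take its end colours.

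Several members were uneven within a code. B2M, the light chain of class I histocompatibility molecules, had 3283, 802 and 1301 FPKM in the EA columns, 3417, 1132 and 1222 FPKM in the EB columns and 3228, 2308 and 2982 FPKM in the EC columns. The highest column of each code was EA2_1, EB1_3 and EC2_2. The same columns led their codes for IFITM3, an interferon-induced membrane protein, with 443, 386 and 390 FPKM against 70.3 to 269 FPKM elsewhere. They also led for NUPR1, a stress-induced nuclear protein, with 713, 330 and 823 FPKM against 68.3 to 204 FPKM elsewhere. IFITM3 and NUPR1 were named after their values were seen. How many genes these columns led within each code was not counted. Of all genes with a mean of at least 1 FPKM, 29.5% were highest in EC2_2, 24.3% in EB1_3 and 10.4% in EA2_1 after rescaling to equal sums. IFI6, another interferon-induced gene, had 1037 FPKM in EA2_1 and 451 FPKM in EC2_2, but 111 FPKM in EB1_3, close to the 106 FPKM of EB1_4. Of 23 genes of antigen presentation and leukocytes matched, 5 were members (B2M, HLA-DRA, IFITM1, IFI6 and IFITM3) and 10 carried a site. The summed leukocyte markers were likewise highest of their codes in EA2_1 (1167 FPKM) and EC2_2 (2278 FPKM), but not in EB1_3 (1141 FPKM), which lay below EB1_4 (1398 FPKM). Most of this sum was Cd74 (1101 FPKM in EB1_3 and 1366 FPKM in EB1_4). PTPRC, CD163, CD68 and CD3E, all far lower, were highest of the EB columns in EB1_3 and of the EC columns in EC2_2. In the EA columns CD163 was highest in EA2_1, and CD68 in EA4_1. The sum of the 7 smooth muscle markers measured was highest of each code in EA2_1, EB1_3 and EC2_2. It was 5997 FPKM in EA2_1 (4113 and 3980 FPKM in the other EA columns), 4599 FPKM in EB1_3 (4386 and 3869 FPKM in the other EB columns) and 7880 FPKM in EC2_2 (7269 and 5816 FPKM in the other EC columns). Of the single markers, only DES and CNN1 led their codes in all of these columns. Acta2 had 1567 FPKM in EB1_3, below 1936 and 1875 FPKM in the other EB columns. The part of either cell type in the levels of these members was not tested.

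TNP1, a transition protein that packs DNA in spermatids, was the 1 member among the 12 sperm and spermatid genes matched, of which 6 carried a site. It had 816, 576 and 546 FPKM in the EA columns, 2.63, 7.36 and 74.7 FPKM in the EB columns and 1483, 307 and 301 FPKM in the EC columns. DBIL5, a testis relative of DBI, had 331, 143 and 198 FPKM in the EA columns, 1.83, 5.68 and 12.8 FPKM in the EB columns and 994, 114 and 99.3 FPKM in the EC columns. For both genes EC2_2 was the highest column and the EB columns were the lowest. The protamine PRM2, not a member, had 163, 155 and 109 FPKM in the EA columns, 0.356, 1.99 and 6.42 FPKM in the EB columns and 170, 13.8 and 6.61 FPKM in the EC columns. All 4 measured markers of sperm had values above 0, and their sum ran from 3.23 FPKM (EB1_3) to 2034 FPKM (EC2_2); the part of sperm or spermatid RNA in the columns was not tested. The sum of the 5 multiciliated cell markers was likewise highest in EC2_2 and lowest in the EB columns. This sum was 32.0, 6.61 and 11.5 FPKM in the EA columns, 0.497, 0.643 and 0.787 FPKM in the EB columns and 34.0, 1.34 and 1.34 FPKM in the EC columns. TEKT1 alone had 21.5 FPKM in EC2_2. TEKT1 and DNAI2 were highest in EC2_2, FOXJ1 and CCDC39 in EA2_1, and RSPH4A in EA4_1 (2.17 FPKM, against 0.0221 FPKM in EC2_2). The part of multiciliated cells was not tested either. Without EC2_2 the mean of DBIL5 was 113 FPKM and that of MMP7, matrilysin, was 123 FPKM, and neither gene would then be a member. Without EA2_1 the mean of IFI6 was 141 FPKM, and it would not be a member either.

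**Figure D5:**
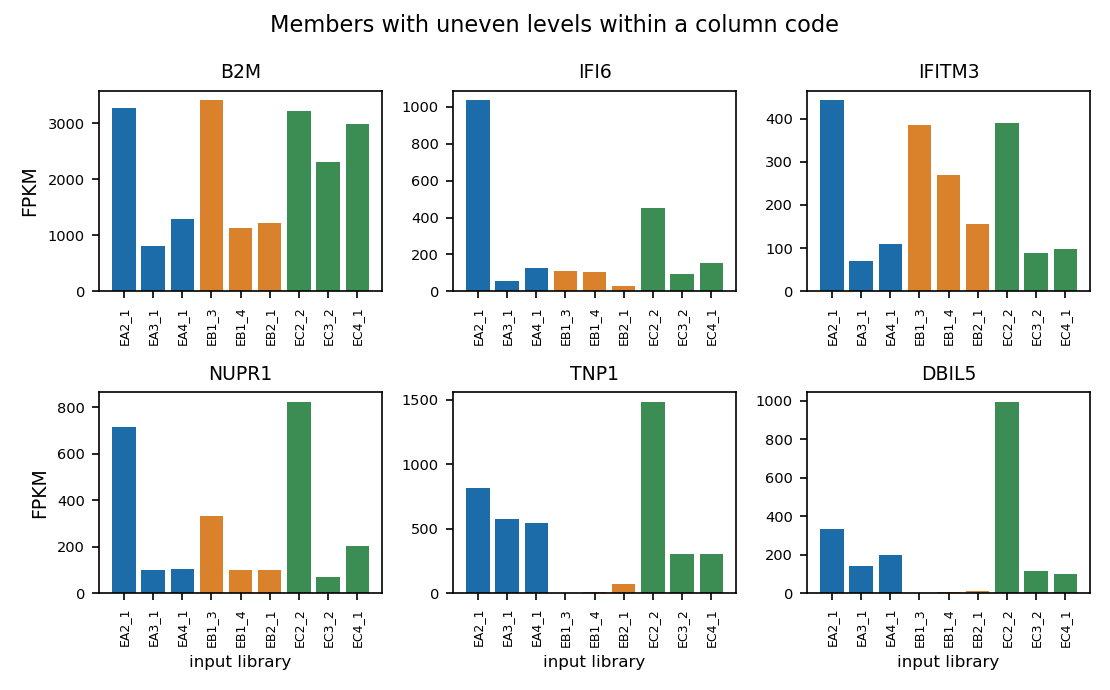
FPKM (vertical axes from 0) of 6 members in each input library (horizontal axes), coloured by code. B2M, IFITM3 and NUPR1 are highest in EA2_1, EB1_3 and EC2_2 within their codes, IFI6 reaches 1037 FPKM in EA2_1, and TNP1 and DBIL5 are highest in EC2_2.

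The libraries in which members reached their highest value were unequal. In the FPKM as deposited, 60 members were highest in EC3_2, 30 in EC2_2 and 25 in EB2_1. No share of other genes was taken for these counts. The order of EC3_2 and EC2_2 turned round on rescaling. After the columns were rescaled to equal sums, 50 members (25%) were highest in EC2_2, 29 (14.5%) in EC3_2 and 25 (12.5%) in EB2_1. All shares that follow are after rescaling. Of the abundant genes with a site, 18.1% were highest in EC2_2, 8.47% in EC3_2 and 9.60% in EB2_1. Among all genes with a mean of at least 1 FPKM, 29.5% were highest in EC2_2, 4.22% in EC3_2 and 3.95% in EB2_1. EB1_3 held the highest value of 14 members (7.00%), of 16.9% of the abundant genes with a site and of 24.3% of all genes.

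Of the 200 members, 38 had a symbol that also stood beside another identifier, and the 200 members carried 196 different symbols. In 7 members another identifier of the same symbol carried a site. These were both copies of EEF1A1 and of MAN2B2, and FTH1, FKBP2 and IFI6. How reads were divided between such copies is not stated in the labels, so levels and lack of a site are uncertain for them.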

How the data were processed

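Input and m6A-enriched libraries of yak epididymis were made from poly(A) RNA, per the labels' protocols. The submitters' processing notes list HISAT2, Trimmomatic and deepTools and give no version. Quantifier, peak caller and build: not given in the sources used here. Expression was deposited by the authors as FPKM, 1 column per input library. Each region's candidate list was deposited with a prediction score and class per adenosine, per the file headers. From the authors' comparison tables the gene identifiers, positions and site lengths (median 251 bases) were used. Of 9629 gene identifiers with a site, 9442 were in the expression table.

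Members and gene lists were chosen with earlier results of these data known. Symbols were matched without regard to letter case. Named are the 20 members with the highest mean, the 5 widest and 5 narrowest, the 5 on either side of the limit and up to 4 per list (75 genes), and others as said. Shares have 95% Wilson intervals (statsmodels 0.14.6; Python 3.11.15, pandas 2.3.3). Peaks were compared by an overlap of at least 1 base. No test was run, since the column codes match no label. The counting of columns that lie apart was checked on simulated data with large planted shifts and little noise. That check covers the counting itself, and not how often genes are called at the spread of these columns. Read counts were not used here, so depth is relative only. Candidate adenosines within members and protein lengths were planned but not analysed here. Alternatives were leaving out each column, the median, equal column sums, sites shared by symbol, the pseudocount, no minimum difference and a filter on values of 0.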

Additional observations from a re-analysis of the deposited data

Results flagged for a closer look

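Among the 75 named genes, 4 had a library that lay far from the other 8, by the gap to its nearest neighbour as a share of the whole range of the 9 input columns (above 0.49, Dixon's limit for 9 values). Genes named outside these 75 were not screened, among them DBIL5 (994 FPKM in EC2_2, 331 FPKM next) and MMP7 (1268 FPKM in EC2_2, 397 FPKM next). Chance alone gives about 1 such gene in 20, and the columns come from 3 regions, so the group is mixed. Lcn5 reached 113865 FPKM in EA3_1, with 56516 FPKM next (share 0.512). CD52 reached 138549 FPKM in EC3_2, with 65850 FPKM next (0.525). ANXA2, a calcium-dependent membrane-binding protein, reached 512 FPKM in EC2_2, with 324 FPKM next (0.551). IFI6 reached 1037 FPKM in EA2_1, with 451 FPKM next (0.583).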

How the results depend on the processing

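Of the 200 members, between 194 and 198 were kept when each column was left out in turn (IFI6 was lost without EA2_1, MMP7 and DBIL5 without EC2_2), 183 under the median in place of the mean, 199 after rescaling to equal sums, 193 when a site under the same symbol counted, and all 200 when genes with a value of 0 were left out. The filter on values of 0 could not change the set, since every member had values above 0 in all columns. When only symbols spelled in capitals were left out, a setting chosen after seeing the data, 190 were kept. The share of the 1000 most abundant genes without a site was 50.7% to 51.0% with a column left out, and it moved to 45.4% without the ribosomal protein, beta-defensin and oxidative phosphorylation genes. The median log2 spread of the members (1.09) was 1.0 to 1.08 with a column left out and 1.04 after rescaling. Leaving out a column can only keep or lower this spread. Rescaling moved the columns against the median one by a log2 of -0.22 (EC3_2) to 0.11 (EB1_3). Columns of a code lay apart in 48 to 57 members with a column left out, in 48 after rescaling and in 106 with no minimum difference. A total of 76 members were in a list, and 74 when a site under the same symbol counted. Depth in counts is unknown, so no counting error of a level is given.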

Other observations

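Genes whose symbols are spelled with small letters would enter the 200 if only capitals were matched. They were 5 ribosomal protein genes, led by Rps29 (5899 to 11506 FPKM) and Rpl23 (2115 to 3594 FPKM), and 5 beta-defensins. Defb22 had a mean of 4614 FPKM with a range of 3.02 to 25705 FPKM, Defb15 a range of 3.85 to 3871 FPKM and Defb43 a range of 0.576 to 2152 FPKM. These ribosomal protein and beta-defensin genes likewise had no site in any comparison table.

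The median and the mean chose different genes where few columns were high. The 17 members that the median would drop included GPX5 (mean 702, median 36.9 FPKM), Lcn12 (591 and 0.697 FPKM), NUPR1 (283 and 103 FPKM), MMP7 (250 and 85.8 FPKM) and LRCOL1 (244 and 78.0 FPKM). LRCOL1, a colipase-like gene, had 650, 735 and 569 FPKM in the EA columns, 13.4, 2.76 and 5.06 FPKM in the EB columns and 60.2, 84.1 and 78.0 FPKM in the EC columns, without overlap.

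MMP7, a secreted metalloprotease, had 387, 3.59 and 102 FPKM in the EA columns, 7.30, 0.497 and 0.617 FPKM in the EB columns and 1268, 85.8 and 397 FPKM in the EC columns. The highest column of each code was again EA2_1, EB1_3 and EC2_2. After rescaling, EC2_2 and EB1_3 were also the most frequent highest columns over all genes with a mean of at least 1 FPKM.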
